A study of Mus musculus with 19 samples.

Results

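The expression of 8 mouse genes was examined: the metallothioneins *Mt1* and *Mt2*, the zinc importers *Slc39a4*, *Slc39a14*, *Slc39a8* and *Slc39a5*, and the exporters *Slc30a1* and *Slc30a10*. They were chosen as metallothioneins and transporters of zinc, some of which also carry iron or manganese, and every probe of the array annotated to one of these symbols was taken, which gave 16 of 46632 probes and 8 of 17711 annotated genes. In the duodenum, *Slc39a4* was 1.80-fold higher on the iron-supplemented than on the control diet and passed the test. *Slc30a10* was 1.85-fold higher by the dimmer of its 2 detected probes, which passed. Its brighter, main probe was 1.86-fold higher and did not pass. The *Slc39a4* call held in 7 of 14 alternative analyses and the *Slc30a10* call in 6, and both were lost with median scaling or background correction. *Mt1* and *Mt2* had lower values on iron that did not pass the test. In the liver, the mean *Mt1* signal of Hfe-/- mice was 4.19-fold that of wild-type mice, and that of iron-supplemented mice 3.91-fold that of their controls, but its spread among mice was wide and neither difference passed the test. Between the tissues, untreated duodenum held more *Mt1*, *Slc39a4* and *Slc39a5* mRNA than untreated liver, and untreated liver more *Slc30a1*. For *Slc39a4* and *Slc39a5* this was seen by the main probe only.

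Metallothioneins are small cysteine-rich proteins that bind zinc and copper in the cell and buffer them, and their genes are switched on by metals through the zinc-sensing transcription factor MTF1 and also by glucocorticoids, inflammation and oxidative stress. Zinc transporters belong to the ZIP family, encoded by *Slc39a* genes, which moves metal into the cytosol, and the ZnT family, encoded by *Slc30a* genes, which moves it out. Several family members prefer or accept other metals, so that the liver and the absorbing duodenum handle zinc, iron and manganese with overlapping sets of proteins.

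All mice were C57BL/6 males, and RNA of individual mice was hybridised to Illumina Sentrix Mouse-6 bead arrays, 10 of liver and 9 of duodenum. Mice homozygous for a disrupted *Hfe* gene, whose loss causes hereditary haemochromatosis, were compared with wild-type mice at about 10 weeks by the methods, both on standard chow with 250 ppm iron; the labels give ages of 10 to 12 weeks in Hfe-/- and 13 to 14 weeks in wild-type livers, and 10 to 11 and 12 to 13 weeks in the duodena. By these labels every Hfe-/- mouse was younger than every wild-type mouse of its tissue, so genotype and age cannot be told apart. Wild-type mice given 2 percent carbonyl iron for 6 weeks were compared with mice kept on a control diet with 200 ppm iron, all 16 to 18 weeks old by the labels. There were 3 Hfe-/-, 2 wild-type, 3 iron-supplemented and 2 control-diet livers, and 2, 2, 3 and 2 duodena in the same order. The knockout is constitutive and affects every tissue, and 1 further duodenal Hfe-/- sample that diverged from the rest was left out by the study.

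The arrays detected 12846 to 14369 probes in the liver and 13936 to 16965 in the duodenum at a detection p under 0.05, and arrays of a group correlated at 0.9709 to 0.9916. Of 7 hepatocyte markers, 6 to 7 were detected on each liver array, and of 6 enterocyte markers on the array, 4 were detected on each duodenal array. The *Hfe* probe lay near background, at a log2 signal of 6.50 to 6.73 in Hfe-/- livers and 6.60 to 6.77 in wild-type livers, was detected on no duodenal array, and therefore does not check the genotype labels. In whole-tissue RNA, fewer cells of a type and less RNA per cell cannot be told apart.

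RefSeq windows of 300 bases, 250 before and 50 after an annotated transcript start on GRCm38.p6, were available for 6 of the 8 genes, not for *Slc39a4* and *Slc39a14*. They were searched on both strands for the core of the metal response element (MRE), the site bound by MTF1, written as TGCACNC or TGCGCNC. Of 32851 windows in the genome, 25.7 percent held at least 1 match, 7.11 percent at least 2, 1.97 percent at least 3 and 0.517 percent at least 4. The windows of *Mt2*, *Mt1*, *Slc30a10* and *Slc30a1*, the metal buffers and exporters among the members, held 4, 3, 3 and 2 matches and are shown. They are also the member windows with the most matches, so they do not stand for the other members. Capitals mark the matches, and a match on the minus strand appears as its reverse complement. *Mt1* lies on chromosome 8 from 94178883 to 94180327, and its window is chr8:94178839-94179138, plus strand. *Mt2* lies next to it, from 94172618 to 94173567, with the window chr8:94172368-94172667, plus strand. The *Mt1* window is set on a transcript start inside the *Mt1* locus, and bases beyond the end of that window were not searched. *Slc30a10* lies on chromosome 1 from 185454848 to 185468762, with the window chr1:185454598-185454897, plus strand, and *Slc30a1* from 191906697 to 191913248 with the window chr1:191906531-191906830, plus strand.
Mt1: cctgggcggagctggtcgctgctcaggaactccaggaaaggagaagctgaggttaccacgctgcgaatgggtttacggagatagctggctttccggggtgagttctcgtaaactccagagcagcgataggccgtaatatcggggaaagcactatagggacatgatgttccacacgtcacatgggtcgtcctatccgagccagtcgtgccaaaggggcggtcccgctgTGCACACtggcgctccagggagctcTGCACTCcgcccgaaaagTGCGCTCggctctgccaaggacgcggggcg
Mt2: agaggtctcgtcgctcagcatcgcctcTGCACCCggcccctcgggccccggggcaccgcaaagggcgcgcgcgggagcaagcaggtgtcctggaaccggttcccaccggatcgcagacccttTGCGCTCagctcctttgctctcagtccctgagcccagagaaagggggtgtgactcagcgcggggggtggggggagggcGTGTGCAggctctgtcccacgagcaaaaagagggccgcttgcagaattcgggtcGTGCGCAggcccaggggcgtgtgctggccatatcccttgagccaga
Slc30a10: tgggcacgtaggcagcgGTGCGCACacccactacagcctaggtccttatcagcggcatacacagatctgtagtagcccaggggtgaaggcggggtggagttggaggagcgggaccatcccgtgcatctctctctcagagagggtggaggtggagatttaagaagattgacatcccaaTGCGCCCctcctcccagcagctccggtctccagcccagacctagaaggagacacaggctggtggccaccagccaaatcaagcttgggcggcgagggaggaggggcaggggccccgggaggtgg
Slc30a1: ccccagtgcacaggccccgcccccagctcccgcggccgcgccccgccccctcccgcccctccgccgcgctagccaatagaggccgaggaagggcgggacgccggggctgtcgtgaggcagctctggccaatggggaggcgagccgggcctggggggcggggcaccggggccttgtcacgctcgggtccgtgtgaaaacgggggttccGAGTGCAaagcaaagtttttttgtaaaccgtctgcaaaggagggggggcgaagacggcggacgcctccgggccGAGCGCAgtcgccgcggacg
In *Mt1* the matches began at bases 228, 253 and 271 of the window, all on the plus strand, and in *Mt2* at bases 28 and 123 on the plus strand and 201 and 255 on the minus strand. In *Slc30a10* the matches at bases 18 and 19 overlap on opposite strands, and the third began at base 178; those of *Slc30a1*, at bases 208 and 281, were on the minus strand. Of the 2 windows of *Slc39a8* 1 held 1 match, as did 1 of the 2 windows of *Slc39a5*. The core of the antioxidant response element, TGACNNNGC, is bound by NRF2 and occurs in 12.4 percent of all windows. It was found once in *Mt2* at base 172, once in *Slc30a1* at base 169, once in the other window of *Slc39a8* and at 2 places in the other window of *Slc39a5*. The *Mt1* and *Slc30a10* windows had no match, which says nothing of the sequence outside them.

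All values below are log2 signal after quantile normalization of the arrays of a tissue, with signal read as bead brightness. A probe that the scanner software did not set apart from negative control beads on an array is called not detected there. Differences were tested with limma, and a probe passed at a Benjamini-Hochberg adjusted p under 0.05 over all probes tested. Where a gene had several probes, the brightest in that tissue stands for it and the others are given beside it. Of the 16 probes, 14 were detected on at least 1 array; 6 of the 8 genes had a probe detected on every liver array and 7 on every duodenal array.

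*Mt1* in the liver was at 13.50, 11.65 and 11.89 in the 3 Hfe-/- livers and at 9.54 and 11.01 in the 2 wild-type livers. It was at 11.12, 12.76 and 13.00 on the iron-supplemented diet and at 11.28 and 9.37 on the control diet. The Hfe-/- mice all lay above the wild-type mice, whereas 1 iron-supplemented mouse lay below 1 control-diet mouse, and the 4 untreated mice alone spanned 9.37 to 11.28. The mean of the Hfe-/- mice (12.34 ± 1.0, SD, n = 3) exceeded that of wild-type mice (10.28 ± 1.04, n = 2) by 2.07 (SE 0.58, 95 percent interval 0.72 to 3.41, limma adjusted p = 0.379). The mean on iron (12.29 ± 1.02, n = 3) exceeded that on the control diet (10.33 ± 1.35, n = 2) by 1.97 (SE 0.66, interval 0.42 to 3.51, limma adjusted p = 0.196). The 2 higher group means lay close to each other, as did the 2 lower ones. Both intervals held positive values only, but neither difference passed after adjustment over all probes tested. Without wild-type replicate 1 the first difference was 1.33 (adjusted p = 0.617), and without control-diet replicate 2 the second was 1.01 (adjusted p = 0.567).

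*Mt2*, the second metallothionein, ran beside *Mt1* at signals nearer background. It was at 8.40, 7.43 and 7.32 in Hfe-/- livers, at 6.99 and 7.13 in wild-type livers, at 6.92, 7.51 and 7.65 on the iron-supplemented diet, and at 7.02 and 6.91 on the control diet. Hfe-/- and wild-type values did not overlap, and those of the diets did. The differences were 0.66 (SE 0.29, limma adjusted p = 0.563) for Hfe-/- against wild-type and 0.39 (SE 0.20, adjusted p = 0.382) for the diet. Without iron-supplemented replicate 1, the lowest of the 3 for both metallothioneins, the diet difference of *Mt2* was 0.61 and passed the test (adjusted p = 0.0178), while that of *Mt1* was 2.55 (adjusted p = 0.0563). Over the 10 liver arrays *Mt1* and *Mt2* correlated at a Pearson r of 0.84 and a Spearman rho of 0.93, and at 0.81 after group means were removed.

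Other lists were read beside the liver metallothioneins. Acute-phase genes averaged a log2 signal of 11.56, 10.64 and 11.61 in Hfe-/- livers, against 10.41 and 10.55 in wild-type livers; 13 of 18 measured genes lay higher in Hfe-/- mice and 0 passed. Of 9 measured glucocorticoid target genes 9 lay higher and 0 passed, with array means of 7.94, 8.41 and 8.09 against 7.75 and 7.92. Only 0.0282 percent of all probes passed in this Hfe-/- comparison, so that 0 passing in a list tells little. On the iron-supplemented diet, the neutrophil calprotectin gene *S100a8* rose 2.49-fold (adjusted p = 0.0172). The acute-phase list had 9 genes above and 9 below 0 of 18, of which 3 rose, among them *Lcn2* and *Socs3* (2.04-fold and 1.83-fold, adjusted p = 0.0323 and 0.0321), and 2 fell, *Saa4* and *Il6ra* (1.92-fold and 2.06-fold lower, adjusted p = 0.00793 and 0.0208), against 2.17 percent of all probes passing. The glucocorticoid list had 4 of 10 above 0, with *Dusp1* rising 2.15-fold (adjusted p = 0.0457) and *Angptl4* and *Tsc22d3* falling (2.07-fold and 1.38-fold lower, adjusted p = 0.00506 and 0.0208). Of 12 NRF2 target genes, which answer oxidative stress, 11 lay above 0 and 2 rose, *Gstm1* 1.62-fold and *Srxn1* 1.51-fold (adjusted p = 0.00952 and 0.0455). The part of these genes in the metallothionein values was not tested.

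*Mt1* in the duodenum was at 13.32 and 13.38 in mice without *Hfe*, 11.94 and 12.66 in wild-type mice, 11.43, 11.58 and 11.92 on the iron-supplemented diet, and 12.53 and 12.31 on the control diet. The Hfe-/- mice were the highest and the iron-supplemented mice the lowest of the 9 arrays, with no overlap with any untreated mouse. The means were 13.35 ± 0.05 (n = 2) against 12.30 ± 0.51 (n = 2), a difference of 1.05 (SE 0.24, interval 0.44 to 1.65, limma adjusted p = 0.645), and 11.64 ± 0.25 (n = 3) against 12.42 ± 0.15 (n = 2), a difference of -0.78 (SE 0.15, interval -1.13 to -0.42, limma adjusted p = 0.138). *Mt2* was at 7.84 and 7.50 in mice without *Hfe*, 7.05 and 7.43 in wild-type mice, 7.05, 7.13 and 6.99 on iron and 7.40 and 7.48 on the control diet. Again each treated group lay to one side of its own controls, with differences of 0.43 (SE 0.19, adjusted p = 0.742) and -0.39 (SE 0.08, adjusted p = 0.19). The pair correlated at an r of 0.87 and a rho of 0.85 over the 9 duodenal arrays, and at 0.42 after group means were removed.

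**Figure D1:**
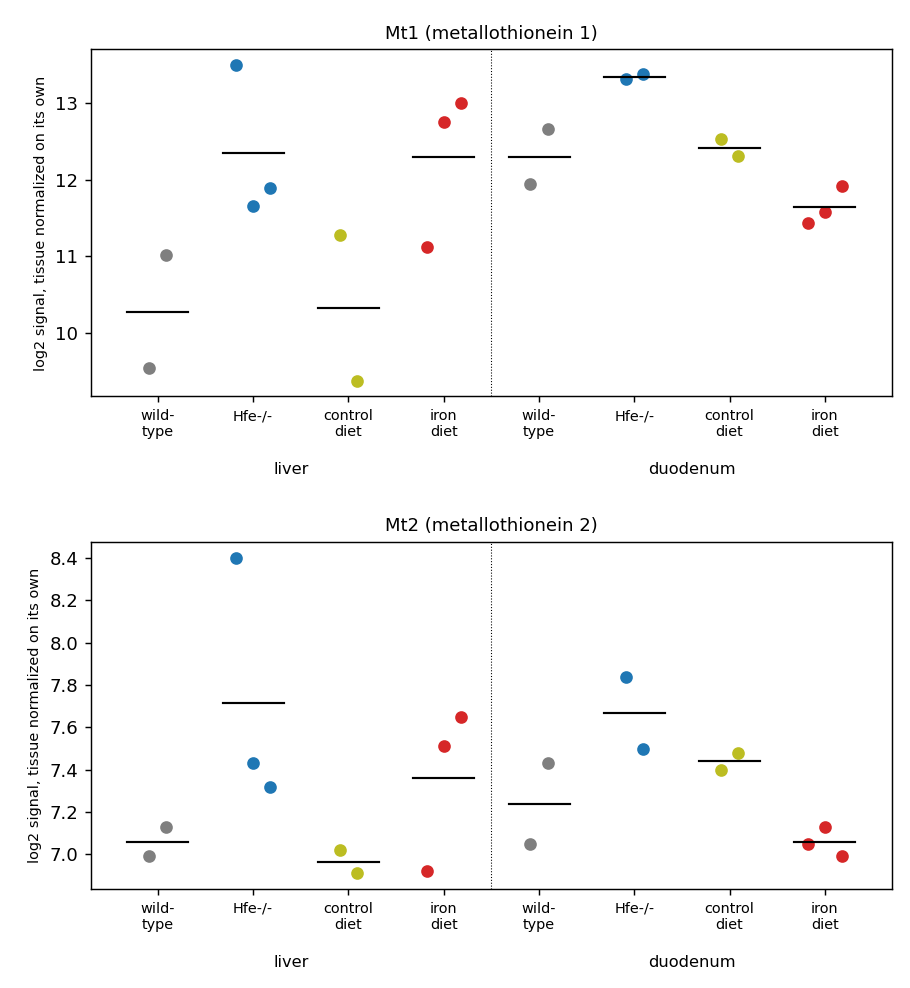
Log2 signal of *Mt1* and *Mt2* (vertical axis, each tissue normalized on its own) in every mouse of the 8 groups (horizontal axis); points are mice, open where the probe was not detected, and bars are group means. *Mt1* spans 9.37 to 13.50 in the liver, and in the duodenum the Hfe-/- mice lie above and the iron-supplemented mice below the untreated mice.

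The 2 models thus had *Mt1* differences of opposite sign in the duodenum, and the difference of the effects was itself tested in a fit of all 9 duodenal arrays. It was 1.82 for *Mt1* (SE 0.31, interval 1.11 to 2.53, 3.54-fold; unadjusted p = 2.8e-04, limma adjusted p = 0.15) and 0.82 for *Mt2* (adjusted p = 0.312). Neither passed, and 0 of 12 member probes did, with 6 at an unadjusted p under 0.05; 0.00541 percent of all probes passed this test. Without wild-type replicate 2, the *Mt1* difference passed (2.20, adjusted p = 0.0429). The same difference of effects in the liver was 0.10 for *Mt1* (adjusted p = 0.984), and 0 of 11 member probes passed, with 2 at an unadjusted p under 0.05, against 0.896 percent of all probes. Without liver wild-type replicate 2, *Slc39a4* passed there (1.55, adjusted p = 0.0116, against 1.02 and 0.219 with it).

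The 2 wild-type duodena each stood apart from the knockouts in 1 marker list. Markers of pancreatic acinar cells averaged a log2 signal of 7.46 in replicate 2, against 13.07 in the other wild-type mouse and 12.95 and 13.97 in the Hfe-/- mice, with 7 of the 8 markers on the array detected in it. Markers of stomach and Brunner gland averaged 9.82 in replicate 1 and 14.06 in replicate 2, against 13.77 and 13.32 in the Hfe-/- mice. Without replicate 2 the duodenal *Mt1* difference between Hfe-/- and wild-type mice was 1.42 (limma adjusted p = 0.091), and without replicate 1 it was 0.68 (adjusted p = 0.681). The part of these cells in the member values was not tested beyond this.

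*Slc39a4* encodes ZIP4, the importer of dietary zinc at the apical membrane of enterocytes, whose loss in humans causes acrodermatitis enteropathica. In the duodenum its signal was 11.79, 11.61 and 11.83 on the iron-supplemented diet and 10.93 and 10.86 on the control diet, and 10.82 and 11.08 in Hfe-/- and 10.97 and 10.85 in wild-type mice. The 3 iron-supplemented mice thus lay above the other 6 mice, which were within 10.82 to 11.08. The diet raised it from 10.90 ± 0.05 (n = 2) to 11.74 ± 0.12 (n = 3), by 0.85 (SE 0.10, interval 0.62 to 1.08, 1.80-fold; unadjusted p = 4.9e-05, limma adjusted p = 0.0256). Between Hfe-/- and wild-type duodena it differed by 0.04 (adjusted p = 0.999). Its call held in 7 of 14 alternatives, with differences of 0.80 to 0.97; it was lost without iron-supplemented replicate 1 or 3 (adjusted p = 0.127 and 0.0598) or control-diet replicate 2 (0.121), and with median scaling (0.154), background correction (0.0845), a replicate block (0.0572) or all 4 untreated mice as controls (0.0614). A second *Slc39a4* probe was detected on 1 liver and 1 duodenal array and otherwise lay at background.

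*Slc30a10* encodes a manganese exporter of the ZnT family that works in liver and intestine. Its main probe was at 8.47, 8.44 and 8.14 in iron-supplemented duodena and at 7.72 and 7.20 in control-diet duodena, and its second probe at 8.0, 7.96 and 8.05 against 7.30 and 6.93. In Hfe-/- duodena the 2 probes were at 7.46 and 7.71 and at 7.10 and 7.30, and in wild-type duodena at 7.69 and 7.62 and at 7.30 and 7.19. For both probes the iron-supplemented mice lay above all 6 others. The second probe rose by 0.89 (SE 0.12, interval 0.61 to 1.17, 1.85-fold; 8.01 ± 0.04, n = 3, against 7.12 ± 0.26, n = 2; unadjusted p = 1.4e-04, limma adjusted p = 0.0407). The main probe differed by the same 0.89 (SE 0.17, interval 0.48 to 1.3, 1.86-fold) and did not pass (adjusted p = 0.137). The call of the second probe held in 6 of 14 alternatives, with differences of 0.71 to 1.5, and was lost without iron-supplemented replicate 1, 2 or 3 (adjusted p = 0.176, 0.126 and 0.107) or control-diet replicate 2 (0.105), with median scaling (0.207), background correction (0.0546), a replicate block (0.0668) or all 4 untreated mice as controls (0.108). Without control-diet replicate 1 the main probe passed too (1.15, adjusted p = 0.0407).

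**Figure D2:**
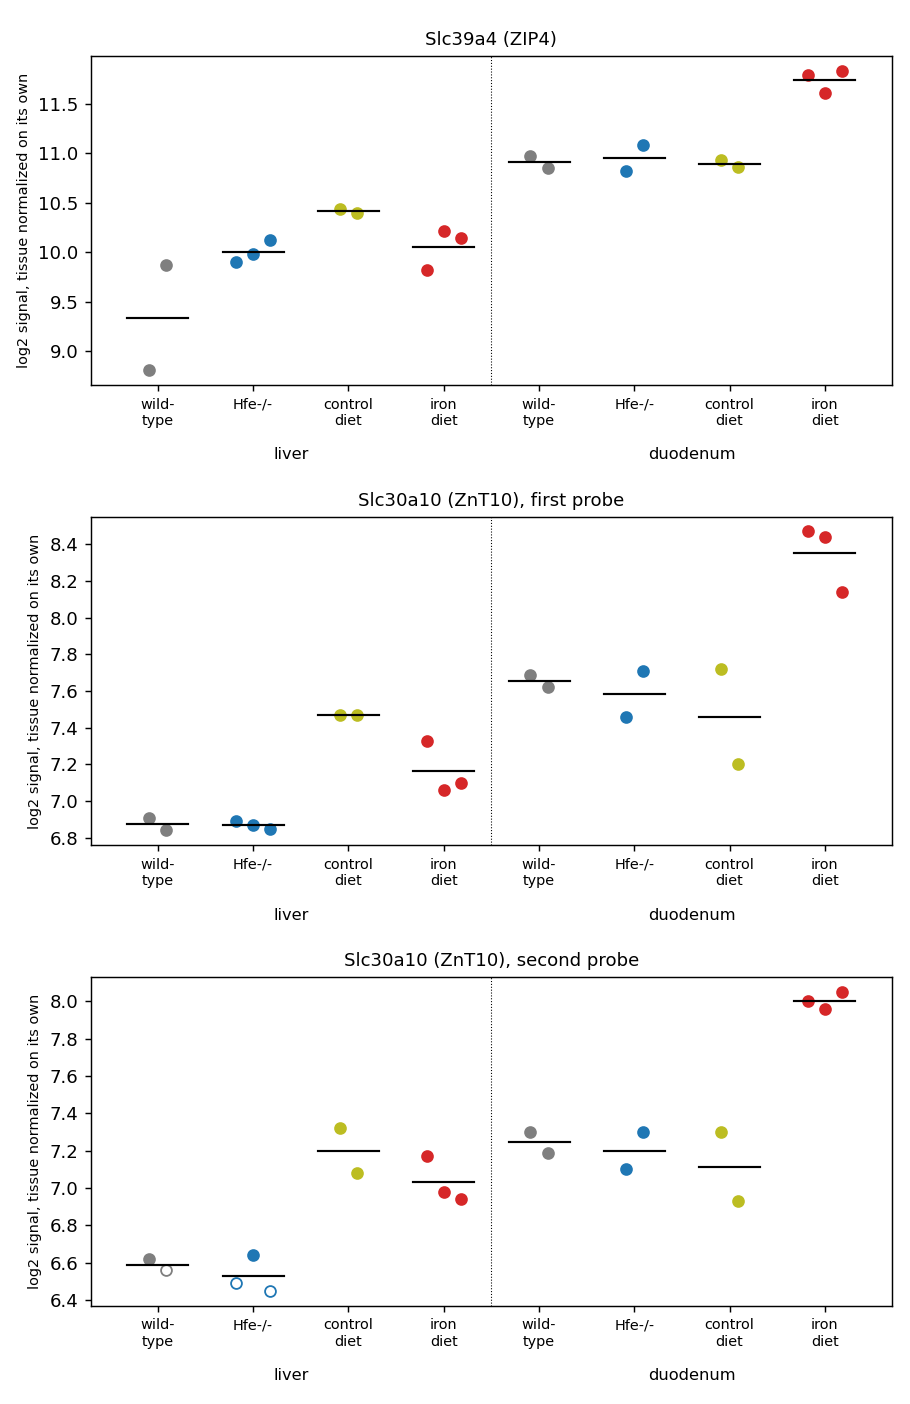
Log2 signal of *Slc39a4* and of both detected *Slc30a10* probes (vertical axis, each tissue normalized on its own) in every mouse of the 8 groups (horizontal axis); points are mice, open where not detected, and bars are group means. In the duodenum the iron-supplemented mice lie above all others, at 11.61 to 11.83 for *Slc39a4* and 8.14 to 8.47 for the main *Slc30a10* probe.

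Of 10 member probes tested for the duodenal diet, 2 rose and 0 fell, 5 had an unadjusted p under 0.05, and 0.44 percent of all probes passed. The median difference of the members was 0.04, against 0.01 over all probes tested. Beside them, target genes of the oxidative stress factor NRF2 moved on the same arrays: 11 of 11 measured genes were higher on iron and 4 rose, the glutathione transferases *Gstm1* (4.30-fold, adjusted p = 0.022), *Gsta1* (3.39-fold, 0.0374) and *Gsta2* (2.77-fold, 0.0371) and the quinone reductase *Nqo1* (1.70-fold, 0.022). Of 5 measured T and B lymphocyte markers 5 were lower on iron, with array means of 7.01 to 7.13 against 7.36 to 7.72, and 0 passed. Goblet cell markers averaged 9.78 to 10.13 against 10.21 to 10.33 and pancreatic acinar markers 12.82 to 12.93 against 12.97 to 13.17. Paneth cell markers averaged 8.79 to 9.05 against 9.09 to 9.14. Stomach and Brunner gland markers, of which 1 to 2 of 5 were detected, averaged 7.58 to 7.62 against 7.72 to 7.78. Enterocyte markers overlapped at 9.50 to 9.63 against 9.29 to 9.53. The part of these shifts in the member values was not tested.

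In the liver, *Slc39a4* was at 9.90, 9.98 and 10.12 in mice without *Hfe*, 8.81 and 9.87 in wild-type mice, 9.82, 10.21 and 10.14 on iron and 10.44 and 10.40 on the control diet. Wild-type replicate 1 was the lowest array by far, and the iron-supplemented mice all lay below the control-diet mice. Neither the difference of 0.66 between Hfe-/- and wild-type mice (SE 0.26, limma adjusted p = 0.525), which was 0.13 without wild-type replicate 1, nor the diet difference of -0.36 (SE 0.12, adjusted p = 0.189) passed, and with all 4 untreated livers as controls the diet difference turned to 0.18 (adjusted p = 0.894). *Slc30a10* was at 6.89, 6.87 and 6.85 in Hfe-/- livers, 6.91 and 6.84 in wild-type livers, 7.33, 7.06 and 7.10 on iron and 7.47 and 7.47 on the control diet. All 5 mice of the *Hfe* experiment lay below all 5 mice of the diet experiment, and the iron-supplemented mice below their controls. The diet difference was -0.31 for the main probe (SE 0.10, adjusted p = 0.163) and -0.17 for the second probe (adjusted p = 0.497); over 15 alternatives the main probe ranged from -0.52 to -0.01 and passed in 1, without iron-supplemented replicate 1 (-0.39, adjusted p = 0.0458), while with all 4 untreated livers as controls the difference was -0.01 (adjusted p = 0.99). The third *Slc30a10* probe was detected on no array.

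None of the probes for the importers that also carry iron and manganese, *Slc39a14* and *Slc39a8*, passed in the *Hfe* or diet comparisons. *Slc39a14* encodes ZIP14, which takes up zinc, manganese and iron not bound to transferrin into hepatocytes. Its main probe was at 7.26, 7.31 and 7.62 in Hfe-/- livers against 7.40 and 7.66 in wild-type livers, and at 7.52, 7.85 and 7.92 on iron against 7.87 and 7.34 on the control diet. In both liver comparisons these ranges overlapped. In the duodenum it was at 7.02 and 7.33 in mice without *Hfe*, 7.38 and 7.47 in wild-type mice, 7.42, 7.87 and 7.79 on iron and 7.77 and 7.85 on the control diet, with Hfe-/- values below wild-type values. A second *Slc39a14* probe, at 6.71 to 7.10 in the liver and 6.85 to 7.13 in the duodenum, correlated with the first at an r of -0.32 over the 10 livers and 0.77 over the 9 duodena, so that the probes of this gene disagree in the liver, and the third was detected on some arrays only. *Slc39a8*, which encodes the related importer ZIP8, was at 6.47 to 6.90 over all 19 arrays and was detected on all 5 livers of the diet experiment but not on every array of any other group, and its second probe was detected nowhere.

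*Slc39a5* encodes ZIP5, an importer at the basolateral membrane of enterocytes and of pancreatic acinar cells. It was not detected in any of the 10 livers, where it read 6.06 to 6.49. In the duodenum it was at 8.98 and 10.30 in mice without *Hfe*, 9.59 and 8.62 in wild-type mice, 10.19, 10.09 and 10.35 on iron, and 10.03 and 10.01 on the control diet. The lowest array was wild-type replicate 2, which also had the low acinar markers. Hfe-/- replicate 1, the next lowest at 8.98, averaged 12.95 for acinar markers. These 2 arrays had the highest averages of stomach and Brunner gland markers, at 14.06 and 13.77. The part of these cells in the *Slc39a5* values was not tested. The Hfe-/- and wild-type ranges overlapped (0.53, SE 0.50, interval -0.71 to 1.78, limma adjusted p = 0.93). The iron-supplemented mice lay above their controls by 0.19 (adjusted p = 0.6). The second *Slc39a5* probe read 6.46 to 6.74 in the duodenum, was detected on 1 duodenal array and no liver, and so did not show the duodenal signal of the first.

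*Slc30a1* encodes ZnT1, the zinc exporter of the plasma membrane. Its main probe was at 9.31, 8.88 and 8.97 in Hfe-/- livers, 9.04 and 8.80 in wild-type livers, 8.67, 9.15 and 8.80 on iron and 8.97 and 8.51 on the control diet, with overlap in both comparisons. The second probe did not overlap for the liver diet, at 7.40, 7.36 and 7.20 against 7.05 and 7.11, a difference of 0.24 (SE 0.08, unadjusted p = 0.024, adjusted p = 0.219). In the duodenum the main probe was at 8.40 and 8.37, 8.23 and 8.32, 8.65, 8.55 and 8.59, and 8.61 and 8.50 in the same order of groups, where the Hfe-/- mice lay just above the wild-type mice. The second probe lay higher in Hfe-/- than in wild-type duodena, at 7.17 and 7.08 against 6.75 and 6.82, by 0.34 (adjusted p = 0.665). Over the 9 duodenal arrays its 2 probes correlated at an r of 0.91 and over the 10 livers at 0.51, while *Slc30a1* and *Mt1* correlated at 0.59 in the liver and -0.46 in the duodenum.

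Over the *Hfe* comparisons as a whole, 0 of 11 member probes passed in the liver, with 2 at an unadjusted p under 0.05 and 0.0282 percent of all probes passing, and 0 of 11 in the duodenum, with 2 at an unadjusted p under 0.05 and 0.00602 percent of all probes passing. For the liver diet comparison 0 of 11 passed, with 4 at an unadjusted p under 0.05, against 2.17 percent of all probes. The study's own rule takes the 0.6 percent of probes with the widest spread and then those changed at least 1.4-fold, without a test. It was rebuilt here from the methods, and its counts of probes differ from the study's counts of genes. The members it took are therefore not a list the study gave. In the liver it took *Mt1*, *Mt2* and *Slc39a4* for Hfe-/- mice (3 of 16 probes, against 0.388 percent of all probes). For the liver diet it took *Mt1* (1 of 16, against 0.525 percent). In the duodenum it took *Mt1* and *Slc39a5* for Hfe-/- mice (2 of 16, against 0.508 percent). For the duodenal diet it took the main *Slc30a10* probe (1 of 16, against 0.448 percent). This rule rewards spread between mice as well as between groups, and *Slc39a4* in the duodenum, which passed the test, was not taken by it.

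**Figure D3:**
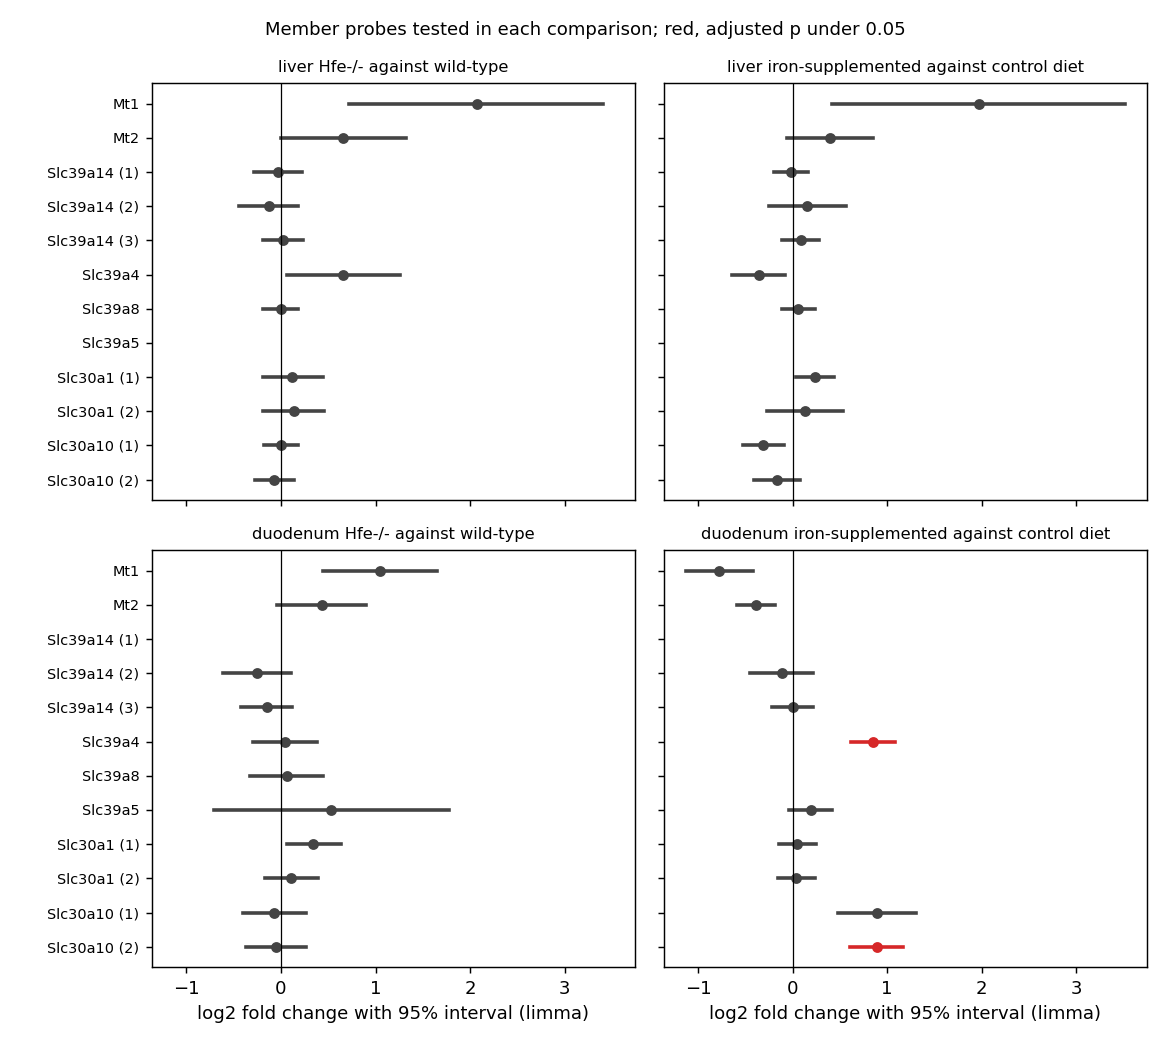
Difference in log2 signal (horizontal axis) of each member probe tested (vertical axis, numbers in brackets tell apart probes of a gene) in the 4 comparisons, with 95 percent intervals from limma. Red marks an adjusted p under 0.05. The intervals of *Mt1* in the liver run from 0.72 to 3.41 and from 0.42 to 3.51, and only duodenal *Slc39a4* and 1 *Slc30a10* probe are red, in the diet comparison.

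The untreated mice of the 2 experiments, which are the same arrays that serve as controls above, also differed. Liver *Slc30a10* was lower in wild-type than in control-diet mice by both probes (-0.59, SE 0.08, limma adjusted p = 0.0277, and -0.61, SE 0.11, adjusted p = 0.042, the second probe being detected in 1 of the 2 wild-type livers), which made 2 of 11 member probes, against 3.38 percent of all probes. Either call was lost when any 1 of the 4 mice was left out (adjusted p = 0.0642 to 0.172 and 0.0728 to 0.217). In the same comparison *Slc39a4* lay 1.08 lower in wild-type livers (a difference of -1.08, adjusted p = 0.128) and passed without wild-type replicate 2 (-1.61, adjusted p = 0.027). In the duodenum 0 of 10 passed, with 4 at an unadjusted p under 0.05 and 5.01 percent of all probes passing; the second *Slc30a1* probe differed by -0.45 (adjusted p = 0.0681), and *Slc39a5* by -0.91 (adjusted p = 0.168), which passed without wild-type replicate 1 (-1.41, adjusted p = 0.00609). Tissue markers differed on the same duodenal arrays: of 4 measured stomach and Brunner gland genes 4 lay higher in wild-type mice and 2 passed, *Muc6* (54.5-fold) and *Tff2* (4.19-fold), 8 of 8 acinar genes lay lower with a median of -3.03 and 0 passing, and 3 of 4 lymphocyte genes were lower past the threshold. The part of these cells in the member values was not tested. Age, iron content of the chow and any handling of the 2 experiments cannot be told apart here.

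The same probe was then compared between tissues after the 19 arrays were normalized together. In untreated mice 6 of 13 member probes passed, 3 higher in liver and 3 lower, against 51.4 percent of all probes. *Mt1* was lower in liver, at 10.29 ± 0.94 against 12.41 ± 0.31 (n = 4 each, a difference of -2.11, SE 0.48, 4.33-fold, limma adjusted p = 0.00149). So was *Slc39a4* by its main probe (-1.06, SE 0.15, 2.08-fold, adjusted p = 2.2e-05). The second *Slc39a4* probe lay at background in both tissues (6.33 ± 0.27 in liver, 6.35 ± 0.10 in duodenum) and did not pass. *Slc39a5* was at least 7.33-fold higher in duodenum by its first probe only, a bound set by the lowest detected signal in the livers (adjusted p = 6.4e-09). Of the measured markers, 8 of 8 pancreatic acinar and 4 of 4 enterocyte genes also passed with lower values in liver. The part of either cell type in the *Slc39a5* difference was not tested. *Slc30a1* was higher in liver by both probes (0.58, 1.5-fold, adjusted p = 3.4e-04, and 0.35, 1.27-fold, adjusted p = 0.00223), and the third probe to pass with a higher value in liver was that of *Slc39a8*. That difference lay at background, with detection on 3 of 4 livers and 1 of 4 duodena and overlapping ranges (6.75 ± 0.12 against 6.53 ± 0.09, adjusted p = 0.0219), and it passed in 7 of 12 alternatives (adjusted p 0.0108 to 0.126): it was lost with median scaling (0.126) and without liver wild-type replicate 1 (0.0826), liver control-diet replicate 2 (0.0818), duodenal wild-type replicate 1 (0.0923) or duodenal control-diet replicate 2 (0.069). *Mt2*, *Slc39a14* and the main *Slc30a10* probe differed by -0.10, 0.18 and -0.15 (adjusted p = 0.716, 0.29 and 0.245).

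The diet effect differed between the tissues for *Slc30a10*. Its effect in liver minus that in duodenum was -1.21 for the main probe (SE 0.19, interval -1.62 to -0.81, limma adjusted p = 0.00676) and -1.06 for the second (SE 0.16, interval -1.4 to -0.72, adjusted p = 0.00458), which made 2 of 13 member probes, against 0.894 percent of all probes. Iron-supplemented mice were above their controls in the duodenum by both probes, and in the liver below them by the main probe and overlapping with them by the second. For *Slc39a4* the difference was -1.23 (SE 0.28, adjusted p = 0.0527), and for *Mt1* it was 2.64 (SE 0.88, interval 0.77 to 4.51, adjusted p = 0.25). The *Slc30a10* calls held without any 1 array, whereas leaving out both arrays of a mouse was not run because the labels do not link them. They were lost with a replicate block (adjusted p = 0.118 and 0.152) and, for the main probe, with median scaling (0.173). The Hfe-/- effect differed between tissues for 0 of 13 member probes, with 0 at an unadjusted p under 0.05 as well, against 0.0194 percent of all probes; for *Mt1* this difference was 0.93 (SE 0.92, adjusted p = 0.826).

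**Figure D4:**
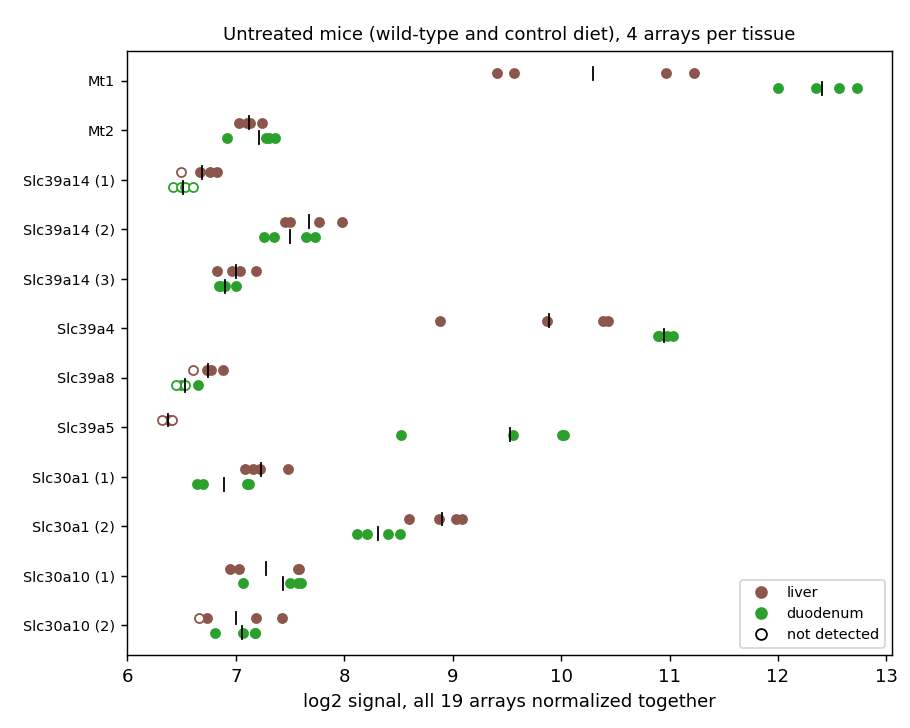
Log2 signal (horizontal axis) of each member probe (vertical axis, numbers in brackets tell apart probes of a gene) in untreated liver and untreated duodenum, with the 19 arrays normalized together; points are mice, open where not detected, and bars are means of 4 mice. *Slc39a5* is not detected in any untreated liver, and *Mt1* averages 10.29 in liver and 12.41 in duodenum.

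Of the remaining 21 genes of the metallothionein, ZIP and ZnT families that were listed, 12 to 13 were measured in each of the 4 comparisons and 0 passed in any of them, with median differences of -0.03 to 0.02. Between the untreated groups of the 2 duodenal experiments, *Slc39a13*, a ZIP transporter of the secretory pathway, was 2.04-fold higher in wild-type mice (adjusted p = 0.0336), the only one of 12 to pass, against 5.01 percent of all probes and beside the stomach and Brunner gland markers that differed on these arrays. Between tissues 10 of 15 passed, 3 higher in liver and 7 lower, against 51.4 percent of all probes, among them *Slc30a2*, which loads zinc into secretory granules of the pancreas and was 3.40-fold lower in liver (adjusted p = 4.5e-07), and *Slc39a11* (-1.38, adjusted p = 3.8e-07).

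Genes whose signal over the arrays was most like that of a member were ranked by Pearson r, as a description, among 8159 liver probes over 10 arrays and 8838 duodenal probes over 9 arrays. In the duodenum the nearest gene to *Slc39a4* was *Slc30a10* itself, by its second probe (r = 0.97), followed by *Gstm1* (0.96) and *Acaa1b* (0.95). The main *Slc30a10* probe and *Slc39a4* correlated at 0.90. After group means were removed, *Slc39a4* correlated at 0.66 with the second *Slc30a10* probe and at 0.20 with the main one. *Slc39a5* was nearest to *Bmp3* (0.96), *Slc30a2* (0.96) and *Slc25a28* (0.94) and *Mt1* to *Sec61g* (0.93), *Adssl1* (0.93) and *Osbpl9* (0.92). In the liver *Mt1* was nearest to *Dbil5* (0.94), *Plpp2* (0.92) and *Cluap1* (0.91), and *Slc30a10* to *Rcor1* (0.99), *Clpx* (0.97) and *Asap2* (0.97). With so few arrays and so many probes, high values of r are easily reached, and arrays of a group share their treatment and age.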

How the data were processed

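RNA of individual mice was amplified from 300 ng and hybridised to Illumina Sentrix Mouse-6 arrays. The deposited signal table gives a linear bead intensity, neither background-subtracted nor normalized, and a detection p-value per probe and array, which the authors' scanner software set against negative control beads. A second deposited table holds log2 values that the authors quantile-normalized in Chipster; it was used only as an alternative for the liver, because its duodenal values did not follow their probe identifiers (correlation with the signal table of the same array up to 0.0111). In Hfe-/- liver the values numbered 1 and 2 are exchanged between the tables (r = 1.00 crosswise and 0.987 otherwise), and the numbers of the signal table were kept. Of 46643 entries, 11 repeated identifiers were averaged, leaving 46632 probes, 29976 of them with 1 gene symbol in the platform annotation.

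The intensities were quantile-normalized without background correction over the arrays of a tissue, or over the 19 arrays for comparisons between tissues, and log2-transformed. Probes detected at p under 0.05 on at least 2 arrays were fitted with lmFit and eBayes (limma 3.58.1, R 4.3.3), on the arrays of the 2 groups compared, on the 4 groups of a tissue for differences of effects, or on the 19 arrays between tissues. Liver and duodenum arrays were treated as independent, since the labels do not link them, although by the methods they can come from the same mice. Tests were two-sided, with Benjamini-Hochberg adjustment over all probes tested. The scripts were tested on simulated data. The number of arrays limits the precision. All member probes were described; of the other lists, at most 4 genes past the threshold per list and comparison, plus any further zinc-family gene past it, and the 3 nearest genes per member; where these were many, the text gives a selection. The members and lists were chosen with earlier results of these data known. Alternatives covered scaling, background correction, the detection filter, the arrays fitted, the eBayes prior, a replicate block, single arrays left out, the authors' log2 values and the study's rule. Sequences and loci are from RefSeq on GRCm38.p6.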

Additional observations from a re-analysis of the deposited data

Results flagged for a closer look

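The effect of the iron-supplemented diet on *Slc30a10* differed between liver and duodenum by a test of the difference itself, at -1.21 on the log2 scale for the main probe (limma adjusted p = 0.00676) and -1.06 for the second probe (adjusted p = 0.00458). In 32 sets of 4 untreated mice, 1 for each member probe and tissue, 0 held a mouse that stood apart by Dixon's test. Each set joined wild-type with control-diet mice. A difference between these groups widens the range, so the test could miss a mouse that stood apart.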

How the results depend on the processing

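Counts of member probes past the threshold were 0 for Hfe-/- against wild-type in liver and duodenum under each alternative test. They were 3 and 2 by the study's rule as rebuilt here. For the liver diet the count was 0, 1 by the study's rule, and 0 to 2 with single arrays left out. For the duodenal diet it was 2, but 0 with median scaling, normexp background correction, the replicate block or all 4 untreated arrays as controls (an alternative chosen after seeing the data), 1 by the study's rule, and 0 to 3 with single arrays left out; over all probes the count of 72 ranged from 0 to 132. For liver wild-type against control diet it was 2, 1 with probes detected on every array only, and 0 to 1 with single arrays left out; for the same duodenal comparison it was 0, and 1 with normexp, no detection filter, all arrays in one fit or a trended prior, and 0 to 1 with single arrays left out. Over all probes these counts of 482 and 808 ranged from 11 to 1016 and from 1 to 1806. For differences between the Hfe and diet effects the counts were 0, and 0 to 1 with single arrays left out in either tissue. For the diet effect between tissues it was 2, 1 with median scaling, 0 with the replicate block and 2 to 2 with single arrays left out, and over all probes 184, with 3 to 222. Between untreated tissues single arrays left out gave 5 to 7 against 6. Over all probes, the count for the liver *Hfe* comparison of 4 ranged from 0 to 25, for the liver diet of 324 from 24 to 484, for the duodenal *Hfe* comparison of 1 from 0 to 57, for the difference of effects of 146 in liver from 11 to 207 and of 1 in duodenum from 0 to 31, for the *Hfe* effect between tissues of 4 from 0 to 167, and for untreated tissues of 10594 from 5381 to 10780. *Slc39a4* in the liver diet comparison turned from -0.36 to 0.18 (adjusted p = 0.894) with all 4 untreated arrays as controls. Among single member probes 539 of the remaining values kept their side of the threshold, 16 came to pass and 32 no longer passed, with the same direction. The cause of these moves was not tested.

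Replicate numbers did not pair the arrays (deviations of same-numbered arrays correlated at -0.46 to 0.15), and the replicate block changed no other count of member probes. In the duodenal *Hfe* comparison a crossed replicate block, chosen after seeing the data, called 0 member probes and 57 probes in all. The block could not be fitted for untreated tissues, a BeadChip block was not run because the files name no chips, and the authors' log2 values were used for the liver comparisons of 2 groups only. A group left with 1 array was taken to vary like the others. Bead signals near background, as for *Mt2*, *Slc39a8* and *Slc39a14*, limit the differences that can be seen.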
